A study of Homo sapiens with 2 samples.

Results

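Lysine methyltransferases and lysine demethylases were followed in 2 gastric cancer (GC) cell lines after knockdown of one of their own number, SET7/9, whose gene is SETD7. The genes were taken by their names in the array design: the SETD, SETDB, SUV39H, SUV420H, EHMT, EZH, KDM, PRDM, SMYD and NSD families, WHSC1 and WHSC1L1, the MLL genes, SETMAR, ASH1L and DOT1L. This gave 65 genes out of 25940 gene names on the array, read by 124 of its 34127 gene probes. No measured value entered the choice.

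Lysine methyltransferases transfer methyl groups from S-adenosylmethionine to lysines of histones and of other proteins, mostly through a SET domain, and demethylases of the KDM1 and jumonji families take them off again. The meaning of a mark depends on the residue: methylation of lysine 4 of histone H3 is found at active promoters and enhancers, that of lysines 9 and 27 at silenced chromatin, and that of lysine 36 along transcribed genes. SET7/9 monomethylates H3K4 and also methylates many proteins other than histones.

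MKN74 and MKN45, established human GC cell lines, were electroporated with 50 nM SET7/9 siRNA or 50 nM negative control siRNA, and total RNA was taken after 48 hrs. For each line, RNA from the knockdown cells (Cy5) and from the control cells (Cy3) was hybridised to 1 two-colour Agilent array. The dyes were not swapped, and no line had a replicate array, so the precision of every value is limited by the number of arrays and the knockdown cannot be told apart from the dye. Which SET7/9 siRNA was on the arrays is not given in the sources used here.

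Both arrays lay on 1 slide. The log2 ratio of Cy5 over Cy3 had a pooled SD of 0.0870 in MKN74 and 0.0987 in MKN45 between repeated spots of a probe, which covers variation within an array only. GAPDH stood at -0.08 and -0.00. All 5 epithelial markers (EPCAM, CDH1, KRT8, KRT18 and KRT19) were well above background in the control cells of both lines, with a summed signal of 726 and 831 times the 75th percentile of the array in MKN74 and MKN45. Of 3 gastric markers, TFF1 and MUC5AC were above background and GKN1 was not, and their sum was 0.195 and 8.73. The sums of the fibroblast (0.384 and 0.188), leukocyte (0.0910 and 0.163) and endothelial markers (0.133 and 0.143) were all below 1, with 1 and 2, 0 and 1, and 1 and 2 genes above background.

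SETD7 was read by 2 probes on the minus strand of chromosome 4 (GRCh37). The first lies at chr4:140427692-140427751, at position 6452 of the reference mRNA, and the second at chr4:140453844-140453903, which is 26152 bases further upstream in the gene and was designed on a separate cDNA record. They gave different answers, so the first 30 of the 60 bases of each are shown.
SETD7, downstream probe: cttggttacattttggtttatgataattaa
SETD7, upstream probe: gagcttactgcactgttgttacttgattct
Whether the upstream probe lies in an exon of the main SETD7 transcript was not determined, since no annotation of this genome build was used.

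The downstream SETD7 probe fell with SET7/9 siRNA in both lines. In MKN74 its signal was 369 units in control cells and 90.1 in knockdown cells, and in MKN45 it was 197 and 51.2 units. The knockdown signal was the lower on both arrays, 4.09-fold in MKN74 and 3.85-fold in MKN45, or -2.03 and -1.95 on the log2 scale. The error of each ratio was 0.28, given by the error model of the scanner software for that spot and not by replicates. With both arrays taken as replicates in limma, the mean was -1.99, with an adjusted p of 0.0306 over 17362 probes measured in both channels on both arrays. Under 5 other settings that adjusted p lay between 1.96e-05 and 0.380, and it was above the threshold in 3 of them. After normexp background correction and loess normalization the ratios were -1.36 and -0.99.

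The upstream SETD7 probe did not follow. Its signal was 96.3 units in control and 114 in knockdown cells of MKN74, and 131 and 112 units in MKN45. This is a log2 ratio of 0.24 (error 0.22) and -0.23 (error 0.21), with opposite signs in the lines. The probes of SETD7 were thus 2.27 apart in MKN74 and 1.72 apart in MKN45. Among all genes with several measured probes, 1 of 3347 in MKN74 and 6 of 3685 in MKN45 had probes at least as far apart, SETD7 included.

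No other methyltransferase or demethylase moved as far. Both channels were well above background for 92 member probes (56 genes) in MKN74 and for 101 (57 genes) in MKN45. In MKN74, 1 member probe was at least 1.5-fold lower (1.45% of all 18582 probes) and 0 were at least 1.5-fold higher (0.64% of all probes). In MKN45, 1 member probe was lower (1.62% of all 20281 probes) and 1 was higher (0.814% of all probes). The lower probe was the downstream SETD7 probe in both lines, and it was the sole member among the probes lower in both lines (0.207% of 17362). The median log2 ratio was -0.03 over the member probes in MKN74, against -0.01 over all probes. In MKN45 it was -0.00 over the members and -0.00 over all probes.

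**Figure D1:**
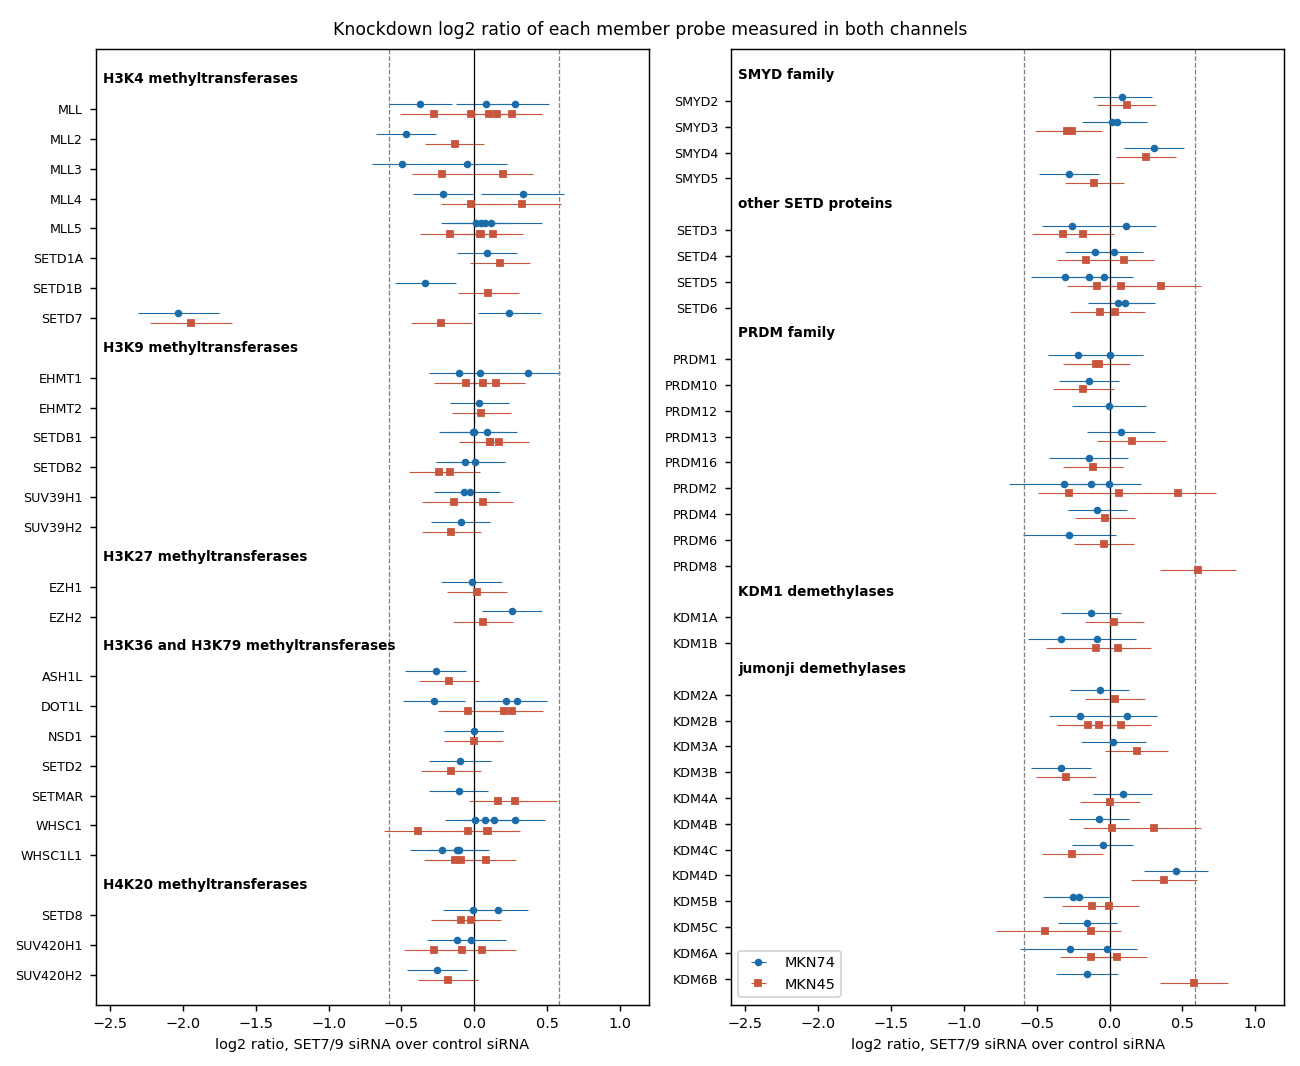
Log2 ratio of SET7/9 siRNA over control siRNA (horizontal axis) for each probe of 57 genes measured in both channels in at least 1 line, grouped by role, with MKN74 as circles and MKN45 as squares. Bars are the scanner software's error of the ratio and dashed lines mark 1.5-fold. Apart from the downstream SETD7 probe at -2.03 and -1.95, 1 probe, of PRDM8 in MKN45, lies beyond the dashed lines.

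PRDM8, a zinc finger protein of the PRDM family, held the probe past 1.5-fold upward. In MKN45 its signal was 28.9 units in control and 44.0 in knockdown cells, a log2 ratio of 0.61 (error 0.26). In MKN74 neither channel was above background. After normexp and loess the ratio was 0.10, no longer past the cutoff. KDM6B, which removes methyl groups from H3K27, lay just under the cutoff of 0.585, at 0.582 (error 0.23) in MKN45 with 46.2 and 69.2 units. In MKN74 KDM6B was at -0.16 (error 0.21), on the other side of 0. After normexp and loess KDM6B was at 0.26 in MKN45 and -0.04 in MKN74.

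Smaller shifts were shared by few members. Past 1.25-fold in the same direction in both lines were 3 of 91 member probes, beside 2.21% of all 17362 probes. They were the downstream SETD7 probe, KDM4D and the upstream probe of MLL4. After normexp and loess the KDM4D and MLL4 probes no longer passed 1.25-fold in both lines. The KDM3B probe then did, at -0.41 in MKN74 and -0.38 in MKN45 in place of -0.33 and -0.30. KDM4D, an H3K9 demethylase, went from 73.0 units in control to 100.2 in knockdown cells of MKN74, and from 53.0 to 68.6 units in MKN45. The log2 ratios of 0.46 (error 0.22) and 0.37 (error 0.23) put it above 0 in both lines, short of the cutoff. After normexp and loess they were 0.34 and 0.14, the latter under its error and under 1.25-fold. In limma its unadjusted p was 0.00294 and its adjusted p 0.241.

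**Figure D2:**
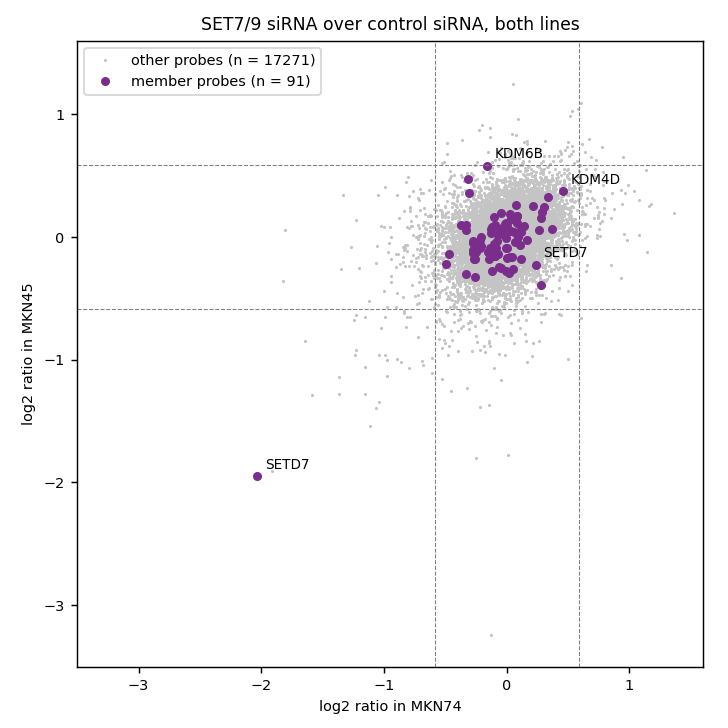
Log2 ratio of SET7/9 siRNA over control siRNA in MKN74 (horizontal axis) and MKN45 (vertical axis) for probes measured in both channels on both arrays, with 91 member probes as large points and 17271 other probes as small points. Dashed lines mark 1.5-fold. The downstream SETD7 probe sits at the lower left, and the other member probes lie within the cloud of all probes.

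In limma, 13 of the 91 member probes had an unadjusted p under 0.05, beside 16.5% of all 17362 probes. The downstream SETD7 probe was the one member past the adjusted threshold. The other 12 probes had mean log2 ratios from -0.36 to 0.42, and their adjusted p in limma ran from 0.241 to 0.291. Of these, 6 had a mean above 0 (KDM4D, MLL4, SMYD4, MLL and both upstream probes of DOT1L) and 6 below 0 (KDM3B, SETD3, MLL3, SUV420H2, ASH1L and MLL2).

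The array design lets one ask whether enzymes that act on H3K4, as SET7/9 does, were higher when SET7/9 was low. Of the 8 genes of this class, SETD1A, the catalytic subunit of a SET1 complex that trimethylates H3K4, had the highest mean over both lines. It stood at 0.09 in MKN74 and 0.18 in MKN45 (error 0.20 for both). SETD1B, its close relative, was at -0.33 and 0.10. MLL2 (now KMT2D), which primes enhancers with monomethylated H3K4, was at -0.47 and -0.13 (errors 0.21 and 0.20). Its signal was 979 and 707 units in the control and knockdown cells of MKN74, and 1339 and 1220 units in MKN45. SETD7 aside, no H3K4 enzyme reached 1.5-fold in either direction at a probe measured in both channels.

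MLL4 (now KMT2B) and MLL3 (now KMT2C) moved differently at their probes. The MLL4 probes lie at positions 1532 and 7853 of the reference mRNA, and the first 30 of their 60 bases are printed because they gave opposite signs in MKN74.
MLL4, upstream probe: caccgtggcccccaaaagcaccaccttcct
MLL4, downstream probe: gaagttctacgatgggaagggcatcgggtg
The upstream probe is at chr19:36211782-36211841 and the downstream probe at chr19:36229074-36229223 (GRCh37, plus strand), the latter a stretch longer than the probe itself. At the upstream probe the log2 ratio was 0.33 in both lines (errors 0.28 and 0.27), on dim signals of 28.1 and 35.4 units in MKN74. At the downstream probe MKN74 gave -0.21 (error 0.21) and MKN45 -0.02 (error 0.20), on 735 and 633 units in MKN74. After normexp and loess the MLL4 ratios were 0.15 and 0.12 upstream and -0.04 and 0.14 downstream. For MLL3 the downstream probe was at -0.49 and -0.22 and the upstream probe at -0.05 and 0.19.

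No methyltransferase of silenced chromatin passed 1.5-fold in either line at a probe measured in both channels. Over the 6 H3K9 genes the median was -0.00 in MKN74 and 0.01 in MKN45. Within this class the lowest mean belonged to SUV39H2, which trimethylates H3K9, at -0.09 and -0.16, and the highest to EHMT1, which dimethylates H3K9, at 0.10 and 0.05. EZH2, the catalytic subunit of Polycomb repressive complex PRC2, had 1985 units in control and 2380 in knockdown cells of MKN74, a log2 ratio of 0.26 (error 0.21). In MKN45 the EZH2 ratio was 0.06 (error 0.20), and EZH1, the other PRC2 enzyme, was at -0.02 and 0.02. After normexp and loess EZH2 was higher, at 0.41 in MKN74 and 0.19 in MKN45, and EZH1 was at 0.13 in each. Among the H4K20 enzymes, SUV420H2 (now KMT5C) was at -0.26 and -0.18, below 0 in both lines, and SETD8 (now KMT5A) averaged 0.08 and -0.06.

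Among the 7 enzymes of H3K36 and H3K79, none passed 1.5-fold in either line at a probe measured in both channels. Their medians were -0.10 and -0.05, and 4 were below 0 in both lines, one of them NSD1 at -0.00 in each, beside 33.6% of all 13610 genes. ASH1L, an H3K36 methyltransferase, had the lowest mean, at -0.27 and -0.18 with an error of 0.21 each. DOT1L, the H3K79 methyltransferase, had the highest, at 0.08 and 0.14 as a mean of 3 probes. Its probes again split: 0.29 and 0.22 upstream against -0.28 at the most downstream probe in MKN74. After normexp and loess the last of these was -0.02, and the upstream probes 0.21 and 0.22. SETD2, which trimethylates H3K36, was at -0.10 and -0.16.

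In the SMYD family, enzymes with a SET domain interrupted by a MYND zinc finger, SMYD4 was the highest at 0.30 and 0.25, with an error of 0.21 in each line. SMYD5 was the lowest at -0.28 and -0.10. SMYD3 differed by line at both of its probes: 0.05 and 0.02 in MKN74, and -0.26 and -0.29 in MKN45. Among the other SETD proteins, SETD3, an actin histidine methyltransferase, had a mean of -0.07 and -0.25. SETD6, which methylates the NF-kB subunit RelA, had a mean of 0.08 and -0.01.

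No demethylase passed 1.5-fold in either line at a probe measured in both channels. Of 14 measured demethylase genes, 11 were below 0 in MKN74, beside 38 of 56 member genes and 52.0% of all genes. In MKN45 it was 7 of 14, beside 31 of 57 members and 50.2% of all genes. In both lines 7 of 14 were below 0, beside 27 of 55 members and 33.6% of all genes. The MKN74 count depended on the normalization: with normexp and loess fewer demethylases were below 0. KDM6A, for one, went from -0.02 and -0.27 at its probes to 0.01 and 0.00. KDM3B, a jumonji enzyme that acts on H3K9, was the lowest at -0.33 and -0.30 (error 0.21 each). It was bright in both lines, with 1407 and 1118 units in MKN74 and 2041 and 1661 units in MKN45. KDM1A, the flavin-dependent demethylase also called LSD1, was at -0.13 and 0.03, and KDM1B at -0.21 and -0.02.

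In the PRDM family, transcription factors with a PR domain related to SET, 14 genes were on the array and 8 and 9 were measured in both channels. PRDM10 was the lowest over both lines at -0.14 and -0.18, and PRDM13 the highest at 0.08 and 0.15. PRDM9, PRDM11 and PRDM14, and outside the family SMYD1, were above background in no channel of either array. PRDM2 was measured in the knockdown channel alone at 1 probe in MKN45, where the knockdown signal was 1.56-fold higher. That plain ratio, 0.64 on the log2 scale (error 0.38), rests on 26.6 units against 17.1, the latter not well above background. It is open to dye bias, and normexp and loess gave 0.20. At the 3 PRDM2 probes measured in both channels the ratios in MKN45 ranged from -0.28 to 0.47.

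Probes of the same gene did not always give the same ratio. The median range over the probes of a gene was 0.247 for 25 member genes in MKN74 and 0.211 for 29 in MKN45, beside 0.157 and 0.171 over all genes with several measured probes. With genes of exactly 2 measured probes the medians were 0.196 for members and 0.136 for all genes in MKN74, and 0.145 and 0.152 in MKN45. After SETD7 the widest were MLL (0.647 in MKN74 and 0.533 in MKN45), PRDM2 (0.313 and 0.749), MLL4 (0.548 and 0.353) and DOT1L (0.570 and 0.301). The probes of SETD8, which share 41 bases, were 0.17 apart in MKN74 and 0.07 in MKN45.

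In MKN74 the most downstream probe of a member was usually the lower one. Without SETD7, it was below the most upstream probe in 20 of 24 genes (83.3%), with a median difference of -0.15 on the log2 scale. Over the 3326 genes of the whole array whose probes were compared in this way, the share was 52.3% and the median -0.01. In MKN45 the share was 13 of 28 member genes (46.4%), beside 51.7% of all genes. MLL was an example, at 0.08 upstream and -0.37 at the probe nearest the end of its transcript in MKN74, and EHMT1 another, at 0.37 and 0.04. This order of probes was examined after the values had been seen. After normexp and loess it held in 17 of 24 genes in MKN74, beside 53.7% of all genes, with a median difference of -0.09. In these 2 examples little of it was left: MLL was then at 0.01 and -0.08, and EHMT1 at 0.21 and 0.18.

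**Figure D3:**
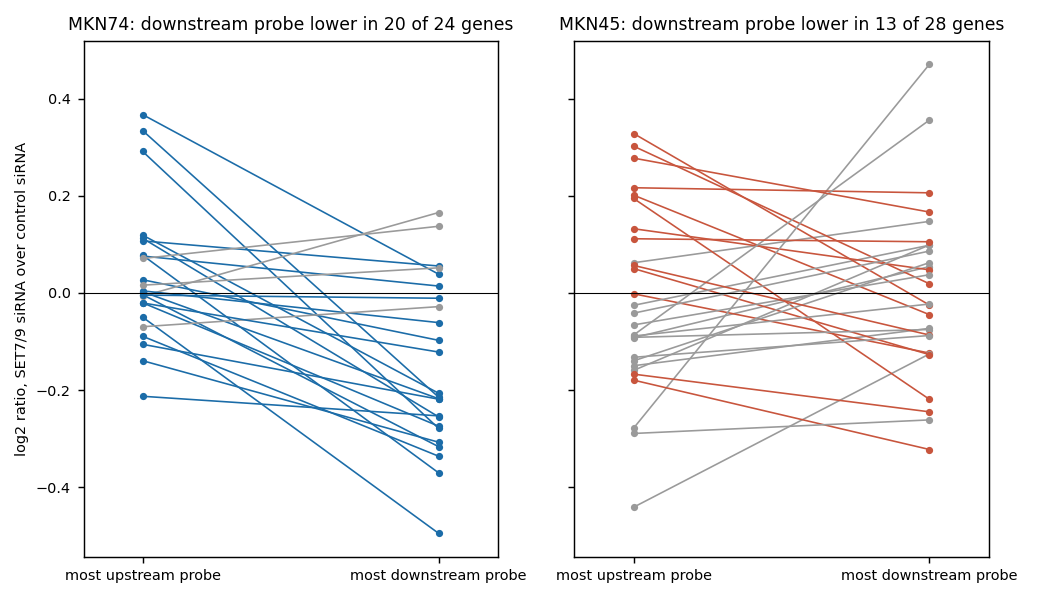
Log2 ratio of SET7/9 siRNA over control siRNA (vertical axis) at the most upstream and the most downstream measured probe of each member gene with several probes, SETD7 left out, in MKN74 and MKN45. Each line is a gene, coloured where the downstream probe is lower. This holds for 20 of 24 genes in MKN74 and 13 of 28 in MKN45.

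Proteins that work with these enzymes were also read. Of 29 genes for subunits of the COMPASS, PRC2 and CoREST complexes and for HP1 proteins, 28 were measured in both channels in MKN74 and 29 in MKN45. Their probes had a median of -0.05 and -0.06. One passed 1.5-fold: PHF21A, a CoREST-associated reader of unmethylated H3K4, which stood at -0.82 in MKN74 and -0.73 in MKN45 (errors 0.23 and 0.22). The study had picked PHF21A out from these same arrays, so its direction here is not independent evidence. After normexp and loess PHF21A was at -0.52 and -0.39. WDR5, the core COMPASS subunit, was at 0.06 and 0.04, and SUZ12 of PRC2 at -0.09 and -0.14.

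The control cells of the lines differed in these genes by more than knockdown cells differed from control cells. Levels are Cy3 signals divided by the 75th percentile of the array, compared between the lines at the same probe. Of 91 member probes above background in both lines, 13 were at least 2-fold higher in MKN45 (16.9% of all 17414 probes) and 12 at least 2-fold lower (17.5% of all probes). The median difference, MKN45 minus MKN74, was 0.01 for the members and 0.03 for all probes on the log2 scale. With 1 array per line, array and line cannot be told apart.

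PRDM16, a transcription factor known from brown fat and blood stem cells, and PRDM6 were the most unequal. The PRDM16 level was 0.0732 in MKN74 and 1.26 in MKN45, 17.1-fold higher in MKN45, at the 1 probe of this gene above background in Cy3. Its other probe did not follow: in Cy5, where it was above background in both lines, it was 1.35-fold higher in MKN45, and in Cy3 it was not well above background in either. For PRDM6 the level was 0.0518 and 0.518, 10.0-fold higher in MKN45. The knockdown cells, a separate culture read in Cy5 on the same arrays, gave 17.4-fold and 11.7-fold at these same PRDM16 and PRDM6 probes. After normexp correction the log2 differences in control cells were 2.78 and 1.73 in place of 4.10 and 3.32. Further members higher in MKN45 were KDM6A, the X-linked H3K27 demethylase (3.03-fold), SETD2 (2.80-fold) and MLL (2.50-fold). With normexp correction KDM6A and SETD2 fell under 2-fold, at log2 differences of 0.75 and 0.97 for the KDM6A probes and 0.89 for SETD2. The MLL probes were then at 0.57, 1.47 and 0.81.

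SMYD3 and WHSC1 led the members that were lower in MKN45. The SMYD3 level was 4.24 in MKN74 and 0.852 in MKN45 at its downstream probe, and 0.378 and 0.159 at its upstream probe. As a mean of both probes SMYD3 was 3.44-fold higher in MKN74, and 4.29-fold in the knockdown cells. WHSC1 (now NSD2), an H3K36 dimethyltransferase, was 3.29-fold higher in MKN74 as a mean of 4 probes. PRDM4 (2.61-fold), SETD3 (2.44-fold) and SMYD5 (2.29-fold) followed. Set against the median of all probes, all 4 measured SMYD genes were lower in MKN45, while 5 of 8 H3K4 methyltransferase genes were higher. SMYD4 was lower by little, at -0.08 against a median of 0.03 on the log2 scale. With normexp correction SMYD4 was above the median, at 0.01 against -0.08. KDM6B was 1.86-fold higher in MKN74 control cells and 1.12-fold higher in MKN74 knockdown cells.

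**Figure D4:**
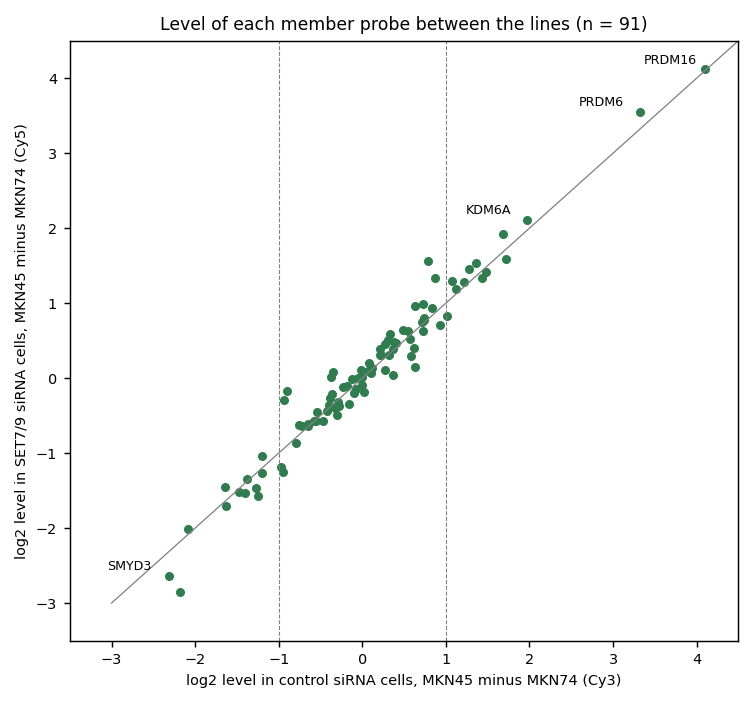
Log2 level of each of 91 member probes in MKN45 minus MKN74, in control siRNA cells (Cy3, horizontal axis) and in SET7/9 siRNA cells (Cy5, vertical axis). The diagonal marks equal differences and dashed lines mark 2-fold in control cells. PRDM16 and PRDM6 lie at the upper right, at 4.10 and 3.32 on the horizontal axis, and SMYD3 at the lower left.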

How the data were processed

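The authors deposited Agilent Feature Extraction 10.7.3.1 output for each array, with signal intensity per channel after background subtraction and linear and LOWESS dye normalization. Per the file headers, each spot also has a log10 ratio (Cy5 over Cy3), an error for it, and the p-value that the scanner software assigns to it. The authors further deposited a table of log2 ratios. Here log10 ratios were converted to log2, outlier spots were left out and spots of a probe averaged. Kept probes had both channels well above background in 50% or more of their spots. The cutoff was 1.5-fold, as in the study, and 2-fold for control levels, which were Cy3 signals over the 75th percentile of the array. No p-value was computed per line, since each line had 1 array. Both arrays were fitted against 0 in limma 3.58.1 (R 4.3.3) with Benjamini-Hochberg adjustment, leaving 1 residual degree of freedom per probe. Nothing in the labels says that cultures were replicated, so p-values rest on the spread between these 2 arrays, which are of different lines. For each probe limma moderated that spread with the variance of all probes fitted. Without a dye swap, a dye effect common to both arrays cannot be told apart from the knockdown in this fit. A bound was given for a probe with 1 dim channel, after Aquantile scaling, the dim channel being raised to the lowest signal well above background where it lay under it.

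Coordinates are those of the probes in the file (GRCh37). Current symbols came from a RefSeq gene table of GRCh38.p14, used for names only, in which 111 of 124 member probes matched and 10 genes had another name. Of the 65 genes, 1 is Y-linked and no value of it is given, and 1 more is not reported here by name. The members, the role and partner lists and the rules were chosen with earlier results of these data known. Named were SETD7, members past 1.5-fold, the highest and lowest of each role, the 5 largest control level differences each way, the 5 widest probe ranges, partners past 1.5-fold, GAPDH, and members chosen after their values were seen (KDM6B, MLL2, MLL3, SETD1B, SETD2, NSD1, WDR5, SUZ12 and the members counted in limma). Alternatives covered normalization, centring, the deposited table, the filters, the cutoff and outlier spots. The limma and counting steps were tested on simulated data. Other steps used Python 3.11.15.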

Additional observations from a re-analysis of the deposited data

Results flagged for a closer look

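Within the members, 3 probes had log2 ratios of opposite sign in the lines, each larger than its own error. At a probe of SETD5 the ratio was -0.31 in MKN74 and 0.36 in MKN45, a difference of 0.66. Normexp and loess reduced these to -0.15 and 0.14, under their errors of 0.23 and 0.27. The other SETD5 probes, which were brighter, gave -0.14 and -0.04 in MKN74 and -0.09 and 0.08 in MKN45. At the upstream SETD7 probe MKN45 minus MKN74 was -0.46. Normexp and loess gave 0.08 in MKN74 and -0.13 in MKN45 there, under the errors of 0.22 and 0.21. At a probe of WHSC1 the ratio was 0.28 in MKN74 and -0.39 in MKN45, a difference of -0.67. With normexp and loess it was 0.38 and -0.05, the latter under its error of 0.23. The other 3 measured WHSC1 probes lay between 0.00 and 0.14 in MKN74 and between -0.04 and 0.10 in MKN45. With 1 array per line the difference was not tested for any of these.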

How the results depend on the processing

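Of 87 recomputed summary values, 67 stayed within their limits. The counts of members changed by knockdown were small and moved with the filter. Without a filter, 5 were lower and 5 higher in MKN74, 2 lower and 5 higher in MKN45, and 3 changed the same way in both lines. With at least 1 channel above background, 2 were higher in MKN74, and 2 lower and 4 higher in MKN45. Shares of all probes under these filters are not given here, so the counts are not read as a trait of the members. The 1 higher member in MKN45 became 0 after normexp and loess, with a 2-fold cutoff, and with an error-model p under 0.01. Members with an unadjusted limma p under 0.05 rose from 13 to 26 of 91 after normexp and loess, beside 4977 of all 17362 probes. There 8 member probes passed the adjusted threshold, beside 1716 of all probes. Under the deposited table and both looser filters 0 members did, with 12, 14 and 19 at an unadjusted limma p under 0.05. Over all probes these were 2507 of 17362, 2569 of 19595 and 4154 of 34123. For control levels, median scaling put the median of all probes at -0.64 and the members' median at -0.65, with 5 member probes at least 2-fold higher in MKN45 and 31 lower. After normexp, loess and Aquantile 5 were higher, without a filter 27 were higher with a median of 0.25, and at 1.5-fold 25 were higher and 21 lower. The causes were not tested. Of 354 recomputed values, covering some of the named probes, 349 moved by less than their error, and 7 changed sign, though 0 called values did. The filters cannot change the ratio of a probe, and centring and the deposited table shifted it little. The count of 349 therefore says little about stability. All 5 larger moves came with normexp and loess: SETD7 in both lines, PRDM8 and KDM4D in MKN45, and DOT1L in MKN74. The order of probes along a gene was added after seeing the data. Leaving out an array was not possible, since a line has 1 array and no residual degree of freedom would be left. No paired analysis was possible because each line has 1 array, on which knockdown and control RNA already share the spots. What limits dim members is signal over background: 24 member probes in MKN74 and 11 in MKN45 were above it in neither channel.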

Other observations

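Some member probes passed 1.5-fold with 1 channel above background, and most allowed no bound above 1-fold. In MKN74 they were a WHSC1 probe at 1.74 and an MLL probe at 0.62, for which the bound was at least 1.11-fold. In MKN45 they were probes of PRDM15 (1.68) and KDM4C (-0.77) without a bound, beside the PRDM2 probe already described.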
